A study of Mus musculus with 2 samples.

Results

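Myosin heavy chains are the motor subunits that bind actin filaments and use ATP to pull on them. Class I heavy chains are single-headed motors whose tails bind membranes, and Myo1g is a member of that class found mainly in blood cells. Class II heavy chains form bipolar filaments and drive contraction and cytokinesis, and the remaining classes carry cargo or signal to small GTPases. The set described here has 9 genes, namely Myo1g, Myo1f, Myo1e, Myo1c, Myo1d, Myo5a, Myo9b, Myh9 and Myh10, of 22010 named genes on the array. They were gathered around Myo1g, which was selected on its signal, known to be much higher with LMO2 siRNA. The other 8 are relatives, chosen by hand from the family with earlier results of these data known. Family alone does not define the set, since 29 other myosin heavy chains, among them the class I gene Myo1h, were left out. Every ratio below therefore describes this set and none is offered as a test of it.

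The samples were G1E-ER-GATA-1 cells, a mouse erythroid line from a GATA-1-null background that carries a GATA-1 fusion switched on by estradiol. The first arm had received siRNA against Lmo2, whose product bridges the GATA-1 and TAL1 transcription factor complex, and the other arm had received control siRNA. Estradiol was then given for 24 h in either arm. Cy3 marked the RNA of LMO2 siRNA cells and Cy5 that of control siRNA cells, and the pair was hybridised together on each of 2 two-colour Agilent arrays. The dyes were not swapped, so a dye effect and the siRNA effect cannot be told apart. Separate cultures are not named in the labels, so the spread between arrays may be technical, and the number of arrays limits the precision of every ratio. Fewer expressing cells and less RNA per cell cannot be told apart in these bulk samples.

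The siRNA target, Lmo2, fell by 1.92 ± 0.14 in log2 ratio (SD, n = 2). The labels call the cells both erythroid and embryonic stem cells. All 11 erythroid markers with a probe were well above background in both channels, and the globin probes were saturated. Of 8 pluripotency markers 3 were well above background on both arrays with LMO2 siRNA and 4 with control siRNA. Nanog, Sox2, Zfp42 and Dppa3 were not well above background on both arrays in either channel. The list summed to 515 and 469 intensity units with LMO2 siRNA against 671 and 572 with control siRNA. The 11 granulocyte and macrophage markers with a probe summed to 729 and 715 units with LMO2 siRNA against 1007 and 961 with control siRNA, with Csf3r, Cybb, Elane and Adgre1 not well above background on both arrays. The 10 lymphocyte markers summed to 719 and 627 units with LMO2 siRNA against 1201 and 966 with control siRNA, with Cd8a, Il7r, Pax5 and Rag1 not well above background. Megakaryocyte markers summed to 2298 and 2310 units with LMO2 siRNA against 2849 and 2661 with control siRNA, and mast cell and basophil markers to 1066 and 1047 units with LMO2 siRNA against 1026 and 977 with control siRNA, with Ppbp of the first list and Mcpt8 and Ms4a2 of the second not well above background. Well above background on both arrays were 6 of 11 granulocyte and macrophage markers with LMO2 siRNA and 7 with control siRNA, 5 and 6 of 10 lymphocyte markers, 7 and 7 of 8 megakaryocyte markers, and 5 and 6 of 8 mast cell and basophil markers. By the rule given below, Cd68 and Ltf of the granulocyte and macrophage list, Gp1ba and Gp5 of the megakaryocyte list and Hdc and Cpa3 of the mast cell list rose, and Gp9 and the lymphocyte marker Cd3e fell. These sums are of mean signals before normalization and include the local background, and the control dye read brighter for most probes. After loess the median log2 ratio was -0.07 for erythroid markers, -0.04 for granulocyte and macrophage markers, -0.07 for lymphocyte markers, 0.10 for megakaryocyte markers, 0.04 for mast cell and basophil markers and 0.004 for pluripotency markers. The part these marker levels play in the myosin ratios was not tested.

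The members were read by 17 probes, each printed in 1 spot, none saturated and none marked as an outlier. Of these, 10 probes from 7 genes had a channel well above background on both arrays and were used, and Myo1f and Myh10 had no such probe. Ratios are log2 of LMO2 siRNA over control siRNA after loess normalization within each array. A gene was called at an adjusted p of 0.05 in limma across all 14280 measured genes. Because log2 ratios changed along the array from its first to its last row, each member is also given with the scanner's position factor divided out before loess and in the scanner's own processed signals. "Rose" and "fell" mark unsaturated genes called in the same direction in all 3 sets of values.

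Of 7 myosin genes with a ratio, 5 were called higher after loess, 0 lower and 2 in neither direction. Across all measured genes 24.6% were called higher and 27.5% lower, or 52.1% in all. With the position factor 6 of 7 members were called higher, where 24.2% of all genes were. In processed signals 2 of 7 were, where 7.37% of all genes were. Myo1g and Myo5a met the rule for all 3 sets of values, which 5.75% of all genes met upward, 2.79% downward and 8.54% in either direction. Myo1g's ratio led to this set being drawn up, and the other members were chosen with earlier results of these data known. These shares are therefore given side by side and nothing is read from them. The median log2 ratio of the 7 was 0.24, against -0.02 for all measured genes, and 0.33 against -0.01 with the position factor. For the 16 measured heavy chains left out of the set it was -0.06, and 0.008 with the position factor.

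**Figure D1:**
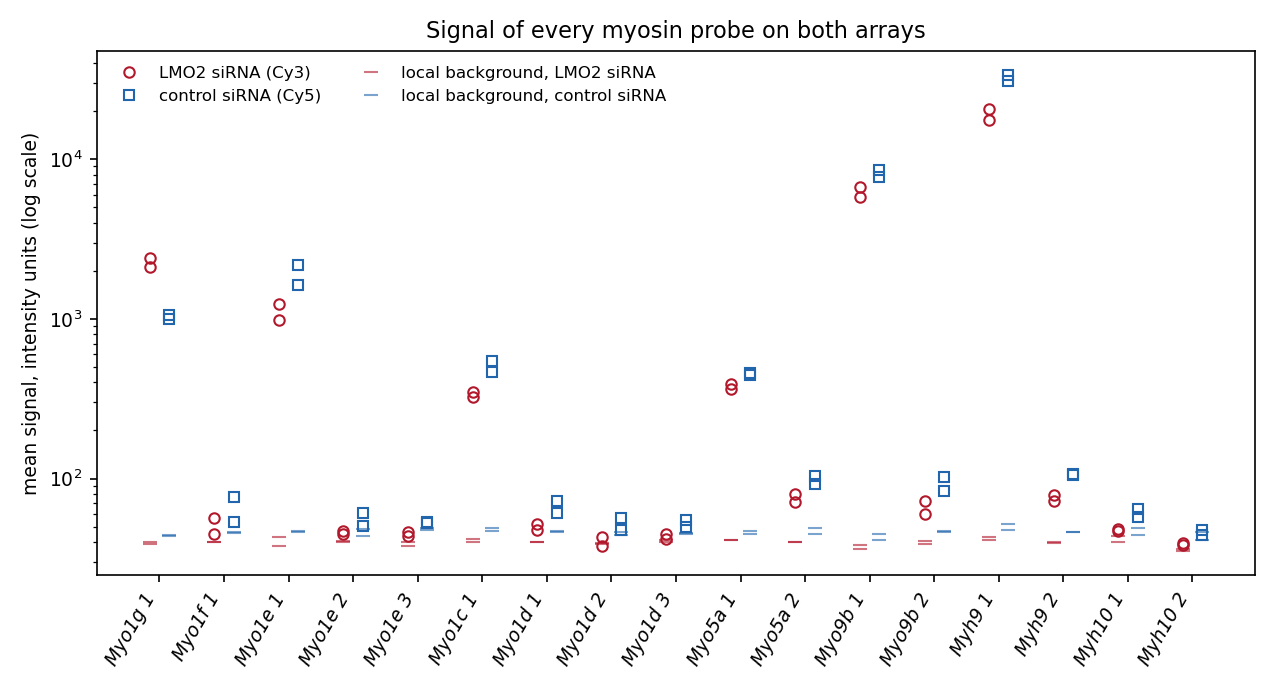
Mean signal of each of the 17 myosin probes, in intensity units on a log axis, with probes of a gene numbered from the brightest. Circles are LMO2 siRNA and squares control siRNA, 1 point per array, and dashes are the local background. The Myo1g probe is the only one whose LMO2 siRNA points lie above its control siRNA points before normalization, and the points of Myh10 lie just above their local background.

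Myo1g is a class I myosin of lymphocytes and other blood cells that sits under the plasma membrane and bears on membrane tension and cell motility. Its probe is shown because the set was built around it, by the first 30 of its 60 bases.
Myo1g probe: gccaaaccagtttaacctggtttccacgct
The probe read 2125 and 2410 intensity units with LMO2 siRNA on arrays 1 and 2, against 997 and 1057 with control siRNA. The LMO2 siRNA signals lay above both control signals before any normalization, although the control dye read brighter than the LMO2 siRNA dye for every other myosin probe. After loess the log2 ratio was 1.93 on array 1 and 2.00 on array 2, a mean of 1.96 ± 0.05 (SD, n = 2), or 3.90-fold. The mean was 1.80 ± 0.07 with the position factor and 1.88 ± 0.07 in processed signals. Among 14042 unsaturated genes it ranked as number 7 from the highest ratio, 10 with the position factor and 37 in processed signals.

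The 5 unsaturated genes whose pair of ratios lay nearest to that of Myo1g were Ahnak, Dok2, Pdxk, Vim and Hey1. Likeness was measured as Euclidean distance over the 2 arrays, which is too few for a pattern, and it ran from 0.05 for the scaffold gene Ahnak to 0.13 for the Notch-responsive repressor gene Hey1. The Ahnak ratios were 1.93 and 2.05, and those of Hey1 were 1.87 and 1.88. The mean of all Ahnak probes was 1.06 in place of 1.99, and that of all Pdxk probes 1.52 in place of 2.02. The nearness was measured on loess values. In processed signals Ahnak read 2.31, Dok2 2.23, Pdxk 1.79, Vim 2.19 and Hey1 2.16, against 1.88 for Myo1g.

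**Figure D2:**
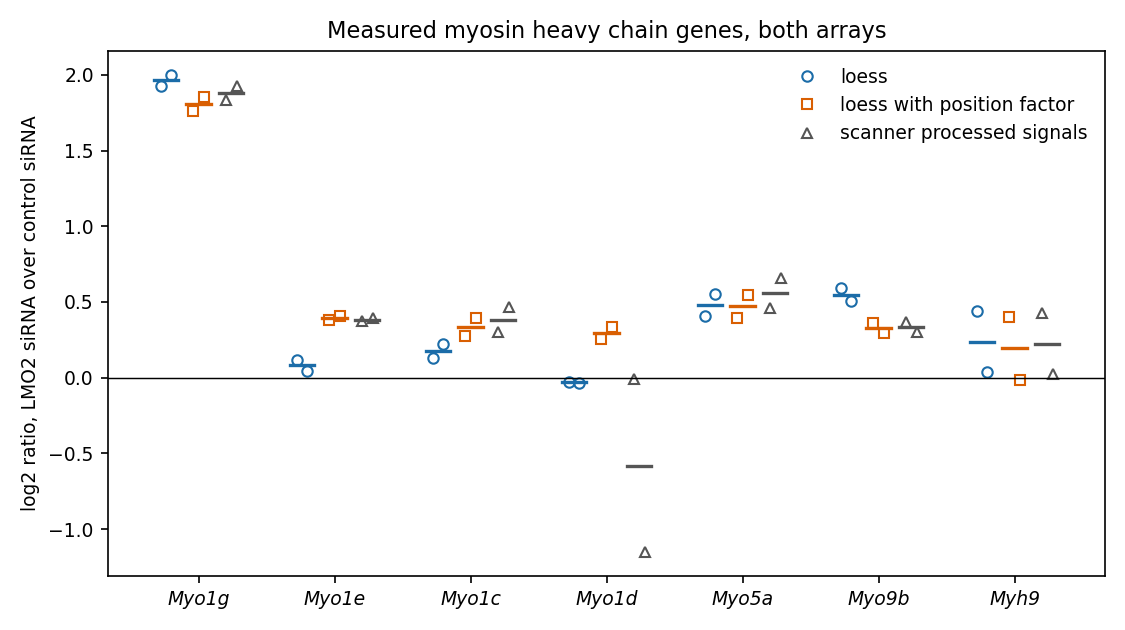
Log2 ratio of LMO2 siRNA over control siRNA for the 7 measured members. Points are the 2 arrays and bars their mean, in 3 sets of values. Myo1g sits between 1.76 and 2.00, while the highest single value of any other member, each by its brightest probe, is 0.66.

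The other class I heavy chains gave much smaller ratios or could not be read. Myo1e has a tail with an SH3 domain and works at endocytic sites and cell contacts. It had 3 probes, shown by their first 30 of 60 bases because they did not read alike.
Myo1e probe 1: gatgagagagagaaagtacgatggttacgc
Myo1e probe 2: caggtagtattccactgtacccattcatga
Myo1e probe 3: ctgattgaactcatgcagagcagtgagctg
Probe 1 read 985 and 1241 units with LMO2 siRNA against 1629 and 2161 with control siRNA, and was well above background in both channels. Probe 2 read 46.9 and 44.7 units with LMO2 siRNA, where its local background was 40.0 and 40.5, against 60.9 and 50.5 with control siRNA. Probe 3 read 46.3 and 43.4 units with LMO2 siRNA against 53.1 and 53.7 with control siRNA. Neither was well above background in any channel on any array, so Myo1e rests on probe 1 alone. Its log2 ratio was 0.12 and 0.04 after loess, a mean of 0.08 ± 0.05 that was not called. With the position factor both arrays read higher, at 0.38 and 0.41 (mean 0.39 ± 0.02), and processed signals gave 0.38 ± 0.02, and the position factor changed the call for Myo1e while processed signals left it uncalled. Median centring turned the mean to -0.52, which is -0.11 relative to the median of all genes under that scaling.

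Myo1c links membranes to cortical actin and takes part in the delivery of glucose transporter vesicles. Its probe read 348 and 324 units with LMO2 siRNA against 542 and 465 with control siRNA. The log2 ratio was 0.13 and 0.22 after loess, with a mean of 0.18 ± 0.07, 0.33 ± 0.08 with the position factor and 0.38 ± 0.11 in processed signals, where it was not called. Both arrays lay above 0 in each of the 3 sets of values, while median centring in place of loess turned the mean to -0.30, or 0.11 above the median of all genes under that scaling, which was -0.41.

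Myo1d, the class I heavy chain of recycling endosomes, was near the limit of the arrays. Its brightest probe read 52.0 and 47.6 units with LMO2 siRNA against 72.5 and 61.1 with control siRNA. The LMO2 siRNA channel was well above background on neither array and the control siRNA channel on both, so the bound is at least 1.01-fold lower with LMO2 siRNA, a margin too small to order the arms. The fitted log2 ratio was -0.03 ± 0.005 after loess, 0.29 ± 0.06 with the position factor and -0.58 ± 0.81 in processed signals, where the arrays gave -0.01 and -1.15. The direction of Myo1d therefore changed with the processing, and its other 2 probes were not well above background in either channel.

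Myo1f, the class I heavy chain best known from neutrophils, macrophages and mast cells, read 56.9 and 45.1 units with LMO2 siRNA against 76.8 and 53.8 with control siRNA. It was well above background on array 1 and not on array 2, and no fold is given. Myo1f was thus not measured well enough on these arrays to be set beside Myo1g.

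Myo5a moves melanosomes and other vesicles along actin with a double-headed motor. Both of its probes were used, and the first 30 bases of each are shown because the second bears on the size of the change.
Myo5a probe 1: agctttggagccaatcatgttgatattgtc
Myo5a probe 2: gagttgtgtaaagttacttggttttagttc
Probe 1 read 362 and 393 units with LMO2 siRNA against 460 and 444 with control siRNA. Its log2 ratio was 0.41 and 0.55 after loess, a mean of 0.48 ± 0.10 or 1.39-fold, and it stayed close to that at 0.47 ± 0.11 with the position factor and 0.56 ± 0.14 in processed signals. Probe 2 was dimmer, with 79.6 and 71.1 units for LMO2 siRNA against 104 and 92.5 for control siRNA, and its log2 ratio was 0.19 and 0.08 after loess and 0.69 and 0.42 in processed signals. All of these values lay above 0, and the mean of both probes after loess was 0.31. With median centring probe 1 read 0.001, which is 0.41 above the median of all genes under that scaling.

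Myo9b is a myosin whose tail holds a domain that switches small GTPases off, and it is known from migrating macrophages. Probe 1 read 6670 and 5825 units with LMO2 siRNA against 8583 and 7705 with control siRNA. The log2 ratio was 0.59 and 0.51 after loess (mean 0.55 ± 0.06, 1.46-fold), the largest after Myo1g, but 0.33 ± 0.05 with the position factor and 0.34 ± 0.05 in processed signals, where it was not called. Median centring turned it to -0.15, or 0.25 above the median of all genes. The spot lies in row 465 of 532, where the median ratio of all genes after loess was 0.12. A dimmer probe of Myo9b read 72.9 and 59.8 units with LMO2 siRNA against 103 and 84.0 with control siRNA, and its log2 ratio was 0.06 and -0.001. The mean of both Myo9b probes was 0.29.

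Myh9 encodes non-muscle myosin IIA, the main contractile myosin of blood cells, and Myh10 encodes myosin IIB, which acts in cytokinesis of many cell types. Myh9 read 20483 and 17627 units with LMO2 siRNA against 30650 and 33785 with control siRNA. Its log2 ratio was 0.44 on array 1 and 0.04 on array 2 after loess, a mean of 0.24 ± 0.28, so the arrays differed by more than the mean. It was called higher after loess but not with the position factor (0.40 and -0.01) or in processed signals (0.43 and 0.02), and median centring turned it to -0.53, which is 0.12 below the median of all genes (-0.12 as a difference). Array 2 alone gave 0.04, so the size of the Myh9 ratio rests on array 1. The dimmer Myh9 probe read 0.02 and 0.12.

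Both Myh10 probes stayed near the local background. The brighter read 48.2 and 47.1 units with LMO2 siRNA, where the background was 44.0 and 40.0, against 64.4 and 57.8 with control siRNA, where it was 49.0 and 44.5. Neither probe was well above background in any channel, and no ratio is given for Myh10.

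**Figure D3:**
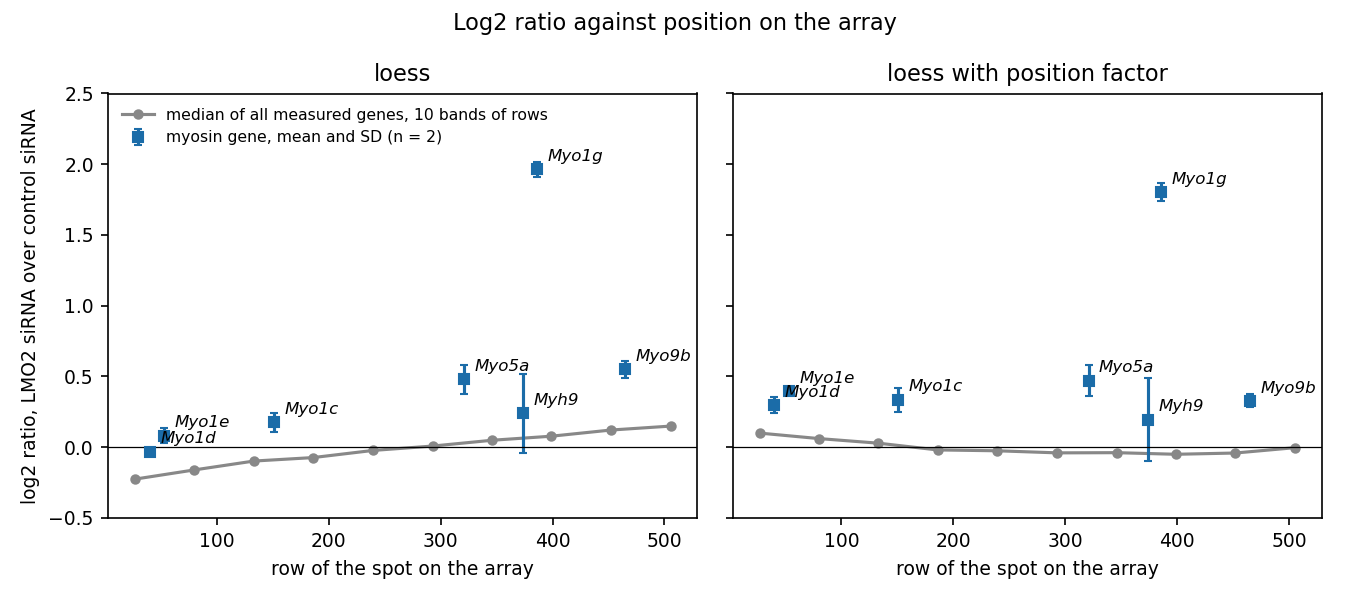
Log2 ratio of LMO2 siRNA over control siRNA against the row of the spot, after loess on the left and with the position factor on the right. Squares are the 7 measured members with SD over 2 arrays, and the line joins medians of all measured genes in 10 bands of rows. The line climbs from -0.23 in the first band to 0.15 in the last after loess, and every member lies above it on both sides.

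The drift with row matters most for the members with small ratios. Myo1e and Myo1d lie in rows 53 and 40, where the median of all genes was -0.23 after loess and 0.10 with the position factor. Both moved up when the factor was applied, whereas Myo9b, near the other edge, moved down. With the factor, Myo1e, Myo1c, Myo1d, Myo9b and Myo5a lay between 0.29 and 0.47, and Myh9 read 0.19 ± 0.29. The Myo1d value comes from a probe with no LMO2 siRNA signal well above background, and it was -0.58 in processed signals. Myo1g in row 386 moved by less than its distance from any other measured member.

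The LMO2 complex is known to bind DNA through GATA factors and basic helix-loop-helix factors. The 250 bases before each RefSeq start listed for a member were therefore searched for their words on both strands. A listed start need not be the outermost start of the gene. The Myo5a window, chr9:75070956-75071205, lies inside the gene, which begins at 75069799. The Myo9b window runs past the outermost start of Myo9b at 71272576. The GATA words searched were AGATAA, then its variant with a final G, AGATAG, then the forms that begin with T, which are TGATAA and, with a final G, TGATAG. The E-box word was CANNTG, and no match of one overlapped a match of the other in the member windows. Of 32851 promoters of the same length listed by RefSeq, 26.5% hold a GATA word and 66.2% an E-box word. The table has a window for 8 of the 9 members, with 3 for Myo1c, and lists none for Myo1d. The windows of Myo1g and Myo9b are shown, as the 2 members with the highest loess ratios, on GRCm38.p6 with matches in capitals.
Myo1g, minus strand, chr11:6520959-6521208: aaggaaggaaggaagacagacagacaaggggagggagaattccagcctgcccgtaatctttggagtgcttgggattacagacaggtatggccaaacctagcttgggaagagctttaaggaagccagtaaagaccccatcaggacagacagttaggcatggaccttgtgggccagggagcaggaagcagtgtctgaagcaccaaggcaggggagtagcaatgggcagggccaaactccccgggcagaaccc
Myo9b, plus strand, chr8:71272464-71272713: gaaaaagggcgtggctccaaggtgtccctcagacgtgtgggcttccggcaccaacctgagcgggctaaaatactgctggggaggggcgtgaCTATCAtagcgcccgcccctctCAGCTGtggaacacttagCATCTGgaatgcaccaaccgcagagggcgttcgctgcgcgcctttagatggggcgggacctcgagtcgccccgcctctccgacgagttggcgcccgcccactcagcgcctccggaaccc
The Myo1g window holds neither word. The Myo9b window holds a GATA word that begins 159 bases before the listed start and E-box words that begin 137 and 119 bases before it. Myo9b was the only member with a GATA word in its window. E-box words were also found for Myo1e, Myo1f, Myh9, Myh10 and 1 of the 3 Myo1c windows, and not for Myo5a. Myo1g and Myo5a, the members that met the rule in all 3 sets of values, therefore had no match in these windows, which describes the letters and not binding.

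The other genes of the actomyosin machinery were read from 5 lists with 104 genes, of which 76 were measured. Of those, 22 were called higher, 22 lower and 32 neither, where 24.6% of all measured genes were called higher and 27.5% lower, with a median log2 ratio of -0.02, the same as that of all measured genes. In all 3 sets of values 9 rose and 2 fell, where 5.75% and 2.79% of all genes did. Adjusted p-values in what follows are from limma after loess. Their variance comes mostly from all genes, with 1 residual degree of freedom per gene beside a prior of 27.4. A small value therefore does not show that the 2 arrays gave like ratios for a gene, and it does not reach beyond these samples.

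**Figure D4:**
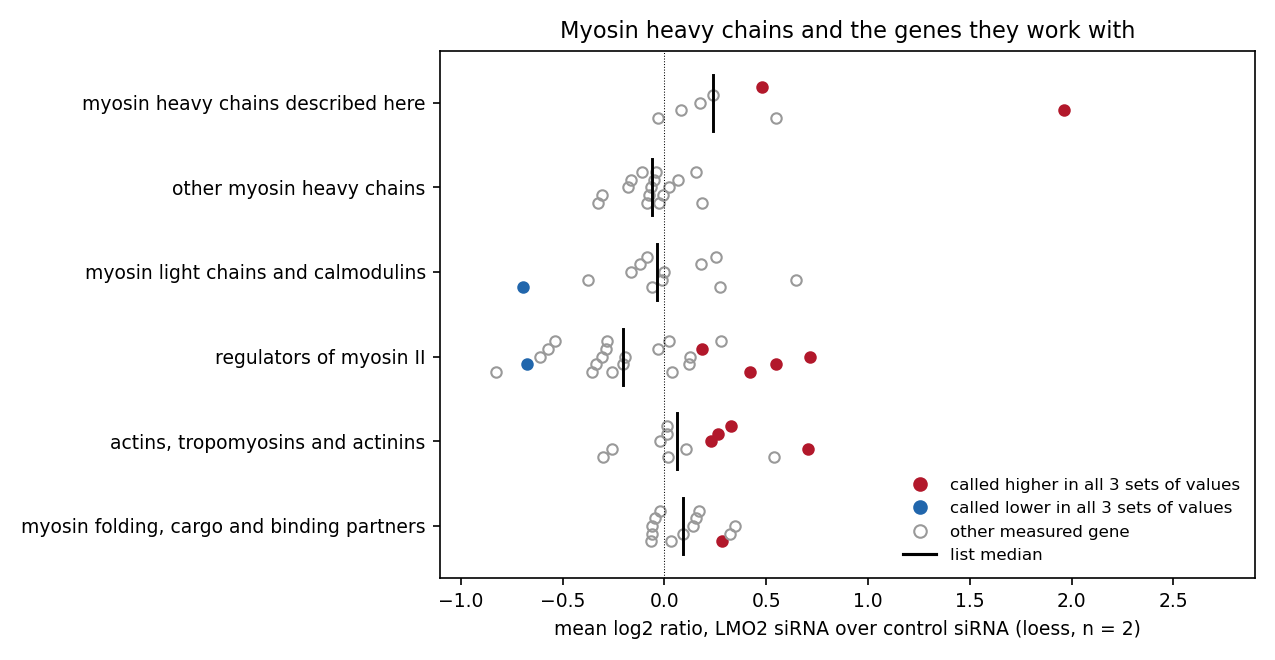
Log2 ratio of LMO2 siRNA over control siRNA after loess for each measured gene of the myosin set and of the 5 lists, with unsaturated genes that rose or fell marked. Bars are medians, 0.24 for the myosin set and between -0.20 and 0.09 for the lists, and the dotted line marks a log2 ratio of 0. The median of all measured genes, -0.02, is not drawn. The Myo1g point lies above every gene of the 5 lists.

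Among the 29 other myosin heavy chains 16 were measured. None rose or fell by all 3 sets of values, where 5.75% and 2.79% of all genes did. After loess 2 were called higher and 4 lower, where 24.6% and 27.5% of all genes were, with a median of -0.06. Myo10, the filopodial myosin, read -0.33 ± 0.05 (adjusted p = 1.4e-05), and Myo19, the mitochondrial myosin, read -0.31 ± 0.03 (adjusted p = 3.4e-05), but in processed signals their adjusted p was 0.074 and 0.070. Myh14, which encodes non-muscle myosin IIC, read 0.18 ± 0.16 (adjusted p = 0.011, or 0.28 with the position factor). Its other probe read 0.10 after loess. Myo1h, a class I relative of Myo1g, read -0.18 ± 0.10 (adjusted p = 0.0099) after loess and did not meet the rule.

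Of 17 light chain and calmodulin genes 12 were measured, with 4 called higher and 3 lower, where 24.6% and 27.5% of all genes were. Mylpf, a light chain of fast skeletal muscle, fell by 0.69 ± 0.08 on the log2 scale (adjusted p = 2.8e-11), and read -0.41 with the position factor and -0.44 in processed signals. Myl12b, a regulatory light chain of non-muscle myosin, read 0.27 ± 0.05 (adjusted p = 1.7e-04), and Calm2, a calmodulin gene, read 0.25 ± 0.05 (adjusted p = 3.7e-04), and neither met the rule in all 3 sets of values. The other probe read 0.72 for Myl12b, with a mean of both at 0.50, and 0.33 for Calm2. With the position factor Myl12b read 0.14 and Calm2 0.05, and in processed signals 0.18 and 0.08. Myl6b read -0.37 ± 0.12 (adjusted p = 3.4e-06) after loess, -0.14 with the position factor and -0.20 in processed signals. The brightest probe of Myl6, the essential light chain that pairs with Myh9, was saturated in the control siRNA channel, so no fold is given for it, and its other probe read 0.27.

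After loess the regulators of myosin II leaned to lower ratios. Of 23 measured genes 13 were called lower and 5 higher, where 27.5% and 24.6% of all genes were. The list median was -0.20 after loess, -0.10 with the position factor and -0.15 in processed signals. By the stricter rule the calls went the other way, as 4 rose and 1 fell, where 5.75% and 2.79% of all genes did. Ppp1r14b, an inhibitor of myosin phosphatase, rose by 0.71 ± 0.14 (adjusted p = 3.1e-11), and its other probe read 0.60. The guanine nucleotide exchange factor genes Arhgef1 and Arhgef2 rose, by 0.55 ± 0.08 (adjusted p = 3.0e-09) and 0.18 ± 0.02 (adjusted p = 0.0065), and the GTPase gene Rhoc rose by 0.42 ± 0.03 (adjusted p = 2.6e-07). The Rhoc probe was dim, and its ratio was 0.34 with the position factor and 1.27 in processed signals. Arhgef2 read 0.47 with the position factor and 0.48 in processed signals. The mean of all Arhgef2 probes was 0.10 and was not called. Ect2, the exchange factor that starts the cytokinetic ring, fell by 0.68 ± 0.05 (adjusted p = 3.9e-11), and its other probe read -0.37. Ppp1cb, the catalytic subunit of myosin phosphatase, read -0.83 ± 0.22 (adjusted p = 6.3e-12), but -0.48 with the position factor and -0.46 in processed signals (adjusted p = 0.062 there). Ppp1r14c, Ppp1r12c and the ring protein gene Anln read -0.61 ± 0.06, -0.57 ± 0.15 and -0.54 ± 0.15, and likewise missed the threshold in processed signals, at adjusted p of 0.055, 0.095 and 0.072. With the position factor they read -0.38, -0.28 and -0.28. The other probes of Ppp1r14c, Ppp1r12c and Anln read -0.30, -0.15 and -0.28 after loess.

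Of 12 measured actin, tropomyosin and actinin genes 5 were called higher and 2 lower after loess, where 24.6% and 27.5% of all genes were, and 4 rose and 0 fell, where 5.75% and 2.79% of all genes did. Flna, the actin crosslinker filamin A, rose by 0.71 ± 0.07 (adjusted p = 1.9e-11) on its brightest probe, while its other probes read -0.06 and 0.41 and the mean of its probes was 0.35. Actg1, a cytoplasmic actin gene, rose by 0.27 ± 0.02 (adjusted p = 2.0e-04) and Tpm3, a tropomyosin gene, by 0.33 ± 0.02 (adjusted p = 1.3e-05). Actg1 read 0.53 in both other sets of values and 0.54 on its other probe. The other Tpm3 probe read -0.13, and the mean of its probes was not called. Actb, the other cytoplasmic actin gene, read 0.54 ± 0.22 after loess, 0.35 with the position factor and 0.36 in processed signals (adjusted p = 0.10 there). Its other probe read 0.13 after loess. The smooth muscle actin gene Acta2 read -0.30 ± 0.30 (-0.07 with the position factor and -0.08 in processed signals) and the actinin gene Actn1 -0.26 ± 0.08, neither of which met the rule, and Actn3 read 0.11, was not called, and lay below 0 in the other sets of values. The other used probes of Acta2 read 0.03 and -0.02 after loess. Of 13 measured folding, cargo and partner genes 6 were called higher and 0 lower after loess, where 24.6% and 27.5% of all genes were, and 1 rose, where 5.75% of all genes did. That gene was Rab27a, which recruits Myo5a to melanosomes, at 0.28 ± 0.05 (adjusted p = 1.1e-04) after loess, 0.60 with the position factor and 0.87 in processed signals. The Rab27a probe was dim, at 90.8 and 92.5 units with LMO2 siRNA against 116 and 105 with control siRNA. Rilpl2, which binds Myo5a, read 0.35 ± 0.004, or 0.21 with the position factor, with an adjusted p of 0.068 in processed signals. The myosin chaperone gene Unc45a read 0.32 ± 0.03 after loess and 0.19 in both other sets of values. Dynll2, a light chain shared by Myo5a and dynein, read 0.15 ± 0.01 after loess, 0.40 with the position factor and 0.40 in processed signals (adjusted p = 0.052 there). Its other probes read 0.13 and 0.54 after loess. Optn, the gene of a Myo6 partner, read 0.17 ± 0.19 after loess and lay below 0 with the position factor and in processed signals. Median centring put 6 of the 9 that rose below 0, all but Rhoc, Flna and Rab27a, and against the median of all genes under that scaling only Actg1 and Tpm3 lay lower, at -0.03 and -0.009.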

How the data were processed

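RNA from LMO2 siRNA cells (Cy3) and control siRNA cells (Cy5) was compared on 2 arrays of 1 slide. The deposited intensity values are scanner mean signals, local backgrounds and processed signals, made with Feature Extraction 9.1.3.1 per the file headers. The deposited series table holds log10 ratios that matched the scanner's log10 ratio within 0.005, with a median of 0 on each array. Mean signals were background-corrected (normexp, offset 50) and loess-normalized within each array in limma 3.58.1 (R 4.3.3), and expressed as log2 LMO2 siRNA over control siRNA. Of 41174 gene probes 24663 had a channel well above background on both arrays, and 14280 genes were measured by their brightest probe. The share of spots well above background was 62.9% and 55.8% in the LMO2 siRNA channel and 68.2% and 60.4% in the control siRNA channel. Symbols came from RefSeq accessions for 24844 probes and from the files for 9636, and 6694 had none. One comparison was fitted (lmFit, eBayes, Benjamini-Hochberg), with 1 residual degree of freedom per gene beside a prior of 27.4. The fit alone was checked, on simulated ratios in which few genes changed. Normalization, row drift and dye effects had no part in that check. The files name no genome build for the probes, so they are not placed in exons or UTRs here.

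The members, the lists and the rules were chosen with earlier results of these data known. Genes named are Lmo2, the members, the list genes that rose or fell or otherwise up to 4 per list with the largest absolute ratio, and the 5 nearest to Myo1g, and 1 such gene is counted but not reported by name here. Promoters are from the RefSeq table on GRCm38.p6. Alternatives changed the position factor, signal, normalization, offset, background correction, filters, flagged and saturated spots, probe summary, variance prior and arrays used.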

Additional observations from a re-analysis of the deposited data

How the results depend on the processing

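The counts of calls depended on the scaling. In processed signals 2 members, 10 list genes and 1053 genes in all were called higher, and 2 list genes and 563 genes lower. With the log10 ratios the series deposited, 2 members, 10 list genes and 976 genes were called higher, and 2 list genes and 491 genes lower. With median centring 1 member, 1 list gene and 424 genes were called higher, and 3 members, 52 list genes and 9239 genes lower. The Myo1g ratio was 1.80 with the position factor, 1.88 in processed signals and in the series' own table, 1.36 with median centring and 2.04 with offset 10, and 1.93 to 2.00 on single arrays. Median centring, which put the median of all genes at -0.41, turned Myo1e to -0.52, Myo1c to -0.30, Myo9b to -0.15, Myh9 to -0.53, Myh14 to -0.16, Myl12b to -0.52, Calm2 to -0.51, Ppp1r14b to -0.054, Arhgef1 to -0.050, Arhgef2 to -0.35, Tpm3 to -0.42, Actg1 to -0.43, Actb to -0.14, Actn3 to -0.22, Rilpl2 to -0.11, Unc45a to -0.38, Optn to -0.44 and Dynll2 to -0.49. Myo1d turned to 0.29 with the position factor and 0.068 with median centring. Actn3 also turned to -0.12 with the position factor and -0.10 in processed signals and in the series' own table. Optn also turned to -0.034 with the position factor and -0.043 in processed signals and in the series' own table. Of 491 values of 41 other named genes under alternatives, 26 changed sign. Of the others 404 kept the call or, for members, moved by less than their SD, 45 lost the call, and 16, all of members, moved by more than their SD. The 404 are not a measure of stability. Changes of filter, flagged or saturated spots and variance prior left the ratios of these genes as they were, so members could not move there. The series' own table gave nearly the same values as processed signals and is no separate check. Counts of calls cannot be given for 1 array alone, which leaves no residual degrees of freedom. Arrays could not be paired by replicate number, because there is no second group of arrays to match. The test itself was on the ratio within each array, which sets the arms of that array against each other. Probes near background, as for Myo1d, Myo1f and Myh10, limit what the arrays can show.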
